A study of Mus musculus with 2 samples.

Results

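The cells described here are meningeal fibroblasts that carry a transcript used to mark the inner layers of the meninges: Aldh1a2, Col18a1 or Ptgds. They were chosen from the read counts themselves. A filtered cell was taken as a fibroblast when at least 3 of 6 genes (Col1a1, Col1a2, Dcn, Col12a1, Mfap4 and Slc47a1) were detected and no transcript of the leukocyte gene Ptprc, the endothelial gene Cdh5 or the pericyte gene Rgs5 was counted. Among these gated fibroblasts, the cells kept had at least 1 unique molecular identifier (UMI, 1 captured transcript) of Aldh1a2, at least 1 of Col18a1, or at least 3 of Ptgds. The rule found 92 of 5816 filtered cells and 92 of 620 gated fibroblasts. Of the 92 cells, 11 came from the Sham library and 81 from the TBI library.

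The study prepared single-cell RNA-seq libraries from the dorsal meninges of male C57BL/6 mice (C57BL/6J in the study's methods) to ask how meningeal cells differ after a mild traumatic brain injury (TBI). One library was made from 5 pooled mice 1 week after TBI and the other from 5 pooled mice 1 week after a Sham procedure, and the labels name no transgene. The labels give the age as 10 weeks in one field and 10 to 12 weeks in another, and live, DAPI-negative single cells were sorted before 10x Genomics 3' capture. Each condition is therefore 1 library, so the mice cannot be told apart, no test between conditions was possible, and every interval below covers counting error only.

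The meninges consist of the outer dura, the arachnoid and the pia, which lies on the brain surface, and each layer has its own fibroblasts. Aldh1a2 encodes a retinaldehyde dehydrogenase that makes retinoic acid and is a classical marker of arachnoid fibroblasts. Ptgds encodes the lipocalin-type prostaglandin D synthase, which is secreted into cerebrospinal fluid by leptomeningeal and choroid plexus cells, and Col18a1 encodes a basement membrane collagen that is used as a pial marker but is also made by blood vessels. Dural fibroblasts are commonly recognised by the transcription factor Foxc2 and the alkaline phosphatase Alpl.

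Aldh1a2 lies at chr9:71215789-71296243 on the plus strand of GRCm38 (mm10), Col18a1 at chr10:77052178-77166548 on the minus strand and Ptgds at chr2:25466709-25470046 on the minus strand. Foxc2 is a plus-strand gene at chr8:121116171-121118895, while Alpl (chr4:137741733-137796384) and Slc47a1 (chr11:61343401-61378345) are on the minus strand. These are the bounds of whole genes in GENCODE M21, and the reads were captured at transcript 3' ends.

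Many of these cells also carried dural markers. Of the 92 cells, 58 also had at least 1 UMI of Foxc2 or Alpl, and 49 met the rule through exactly 1 UMI of Aldh1a2 or of Col18a1. Lama1, a laminin chain of the pial basement membrane, was detected in 1 TBI cell with 2 UMIs, and the further pial marker Ngfr in 2 TBI cells with 1 UMI each. S100a6, a calcium-binding protein with the most UMIs of the 4 pial markers, had 26 UMIs in 4 Sham cells and 214 in 39 TBI cells. Its level was 521 CPM (UMIs per 1000000) in Sham and 699 CPM in TBI, against 139 and 643 CPM in gated fibroblasts with neither an inner-layer nor a dural marker and 1281 and 337 CPM in dural-marked fibroblasts outside the rule. The fourth pial marker is Col18a1, which the rule uses. Given the dural markers and the single UMIs, the cells are called Aldh1a2/Col18a1/Ptgds-positive fibroblasts below and are not assigned to a layer.

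Most cells met the rule through a single transcript, and the counts that follow are the rule's own values. In Sham, 4 cells met the rule through Aldh1a2 alone, 3 through Col18a1 alone and 4 through Ptgds alone, and none through more than 1 gene. In TBI, 23 cells met it through Aldh1a2 alone, 33 through Col18a1 alone and 15 through Ptgds alone, whereas 10 met more than 1 criterion. Those 10 cells comprised 4 with Aldh1a2 and Col18a1, 3 with Aldh1a2 and Ptgds, 2 with Col18a1 and Ptgds, and 1 with all 3. Col18a1 alone thus brought in the most TBI cells.

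In Sham, the 4 Aldh1a2-positive cells held 10, 3, 2 and 1 UMIs of the gene, and the 3 Col18a1-positive cells held 8, 1 and 1. The 4 Ptgds-positive Sham cells held 10, 4, 4 and 3 UMIs. A single cell thus supplied most of the Aldh1a2 UMIs and another most of the Col18a1 UMIs. In TBI, Aldh1a2 was detected in 31 cells with 54 UMIs, and 22 of these cells held exactly 1 UMI, with a maximum of 9. Col18a1 was detected in 40 TBI cells with 56 UMIs, and 32 held exactly 1, with a maximum of 7. Ptgds was distributed differently: it was detected in 30 TBI cells, of which 21 had 3 or more UMIs, and the highest cell had 3349 of the library's 4506 Ptgds UMIs in these fibroblasts.

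**Figure D1:**
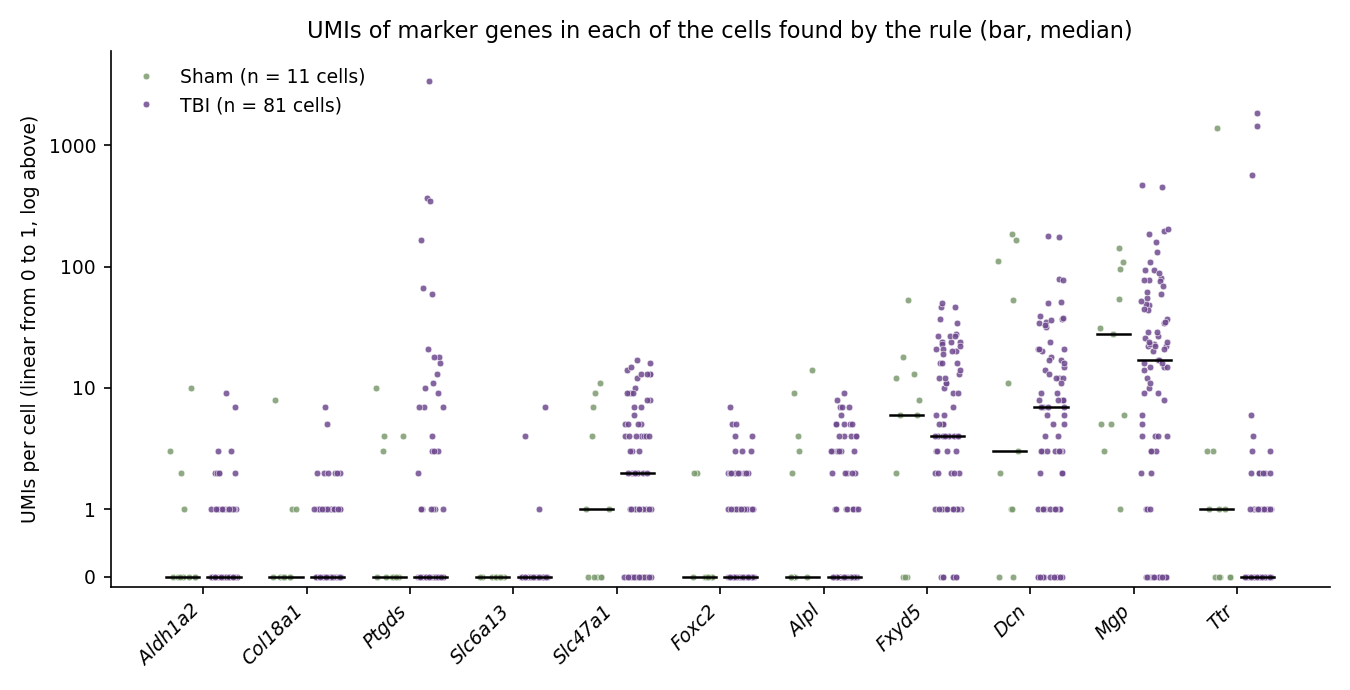
UMIs of 11 marker genes in each Aldh1a2/Col18a1/Ptgds-positive fibroblast, on an axis that is linear from 0 to 1 and logarithmic above, with a bar at each library's median. Aldh1a2 and Col18a1 stayed between 0 and 10 UMIs per cell, while single cells exceeded 1000 UMIs of Ptgds or Ttr, and Foxc2, Alpl and Fxyd5 were spread over many of the same cells.

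The matrix genes of the gate were broadly present. Col1a1, a chain of type I collagen, was detected in 10 of 11 Sham and 76 of 81 TBI cells, and Col1a2 in 11 and 77. Dcn, which encodes the proteoglycan decorin, was detected in 9 of 11 Sham cells (median 3 UMIs, highest 184) and 68 of 81 TBI cells (median 7, highest 178). Mgp, a matrix calcification inhibitor that the rule does not use, was found in all 11 Sham cells (median 28 UMIs) and in 68 of 81 TBI cells (median 17). The 11 fibroblast markers outside the rule, among them Lum, Fbln1 and Igfbp5, were all detected in each library and together took 27009 CPM in the Sham cells and 24238 CPM in the TBI cells.

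Markers of other meningeal layers were then compared with the gated fibroblasts outside the rule in the same library. Foxc2 or Alpl was detected in 45.5% of Sham cells (95% exact binomial interval 16.7 to 76.6, n = 11) against 58.5% (44.1 to 71.9) of the 53 other gated fibroblasts, and in 65.4% of TBI cells (54.0 to 75.7, n = 81) against 66.9% (62.5 to 71.2) of 475. The positive cells were deeper, however, with a median of 4383 UMIs against 2149 in Sham and 3253 against 2107 in TBI. When each cell was thinned to 1000 UMIs, the shares in Sham were 36.4% (10.9 to 69.2) and 36.6% (22.1 to 53.1), and those in TBI were 36.4% (25.7 to 48.1) and 50.5% (45.6 to 55.4). Thinning left out 0 of 11 and 12 of 53 Sham cells, and 4 of 81 and 55 of 475 TBI cells. At this depth the intervals overlapped in both libraries, narrowly in TBI, and overlap alone cannot decide whether the shares differ. The dural markers were present in 28 of 77 thinned TBI cells of the rule. Taken singly in TBI, Foxc2 was in 13.0% (6.41 to 22.6) against 24.3% (20.3 to 28.7) and Alpl in 27.3% (17.7 to 38.6) against 34.8% (30.2 to 39.5). In Sham these shares were 9.09% against 12.2% for Foxc2 and 36.4% against 29.3% for Alpl. With the rule itself applied after thinning, the shares were 2 of 6 (33.3%) and 42.4% in Sham and 15 of 33 (45.5%) and 51.5% in TBI. At 2000 UMIs, with the rule applied after thinning, the dural markers were in 0 of 6 Sham cells (exact upper limit 45.9%) against 30 of 42 others (71.4%, 55.4 to 84.3), intervals that did not overlap, and in 62.2% (46.5 to 76.2) against 75.3% (70.1 to 80.1) in TBI. For the cells as first chosen the shares at 2000 UMIs were 3 of 10 (6.67 to 65.2%) and 58.6% (38.9 to 76.5) in Sham, and 59.0% (45.7 to 71.4) and 72.1% (66.0 to 77.6) in TBI. In B cells, which should lack both genes, the share at 1000 UMIs was 0.95% in Sham and 2.02% in TBI. Where the dural transcripts in the cells of the rule came from was not tested, and doublets were not called.

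Fxyd5, an ion transport regulator that is abundant in dural fibroblasts, was found in 72.7% of Sham and 88.9% of TBI cells against 81.1% and 81.1% of the other gated fibroblasts. Thinned, the TBI shares were 74.0% (62.8 to 83.4) and 72.6% (68.1 to 76.8). The intervals of the Fxyd5 shares overlapped throughout. Cldn11, the tight junction claudin of the arachnoid barrier, was found in 5 of 11 Sham cells and in 50.6% of TBI cells (39.3 to 61.9) against 31.4% (27.2 to 35.8), and after thinning in 31.2% (21.1 to 42.7) against 21.7% (17.8 to 25.9) in TBI. In Sham the thinned Cldn11 shares were 9.09% (0.230 to 41.3) and 19.5% (8.82 to 34.9), the opposite order with wide intervals. Crabp2, a retinoic acid binding protein, was found in 18.5% of TBI cells (10.8 to 28.7) against 10.7% (8.10 to 13.9), which after thinning came to 6.49% (2.14 to 14.5) against 5.24% (3.31 to 7.82). In Sham it was found in 1 of 11 cells (9.09%) and 6 of 53 others (11.3%), and in none of either after thinning.

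Slc6a13, a GABA and taurine transporter of arachnoid cells, was detected in 3 of 81 TBI cells (12 UMIs, 3.70% with an interval of 0.770 to 10.4) and in 0 of 475 other gated TBI fibroblasts (exact upper limit 0.774%). The intervals overlapped narrowly, and after thinning the counts were 1 of 77 cells (1.3%, 0.0329 to 7.02) and 0 of 420 (exact upper limit 0.874%). In Sham it was found in 0 of 11 cells and 0 of 53 others (exact upper limits 28.5% and 6.72%). All 12 UMIs lay in 3 of the 4 TBI cells that had at least 100 Ptgds UMIs. Cdh1, the epithelial cadherin of the arachnoid barrier, was seen in 4 TBI cells (6 UMIs) and no Sham cell.

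**Figure D2:**
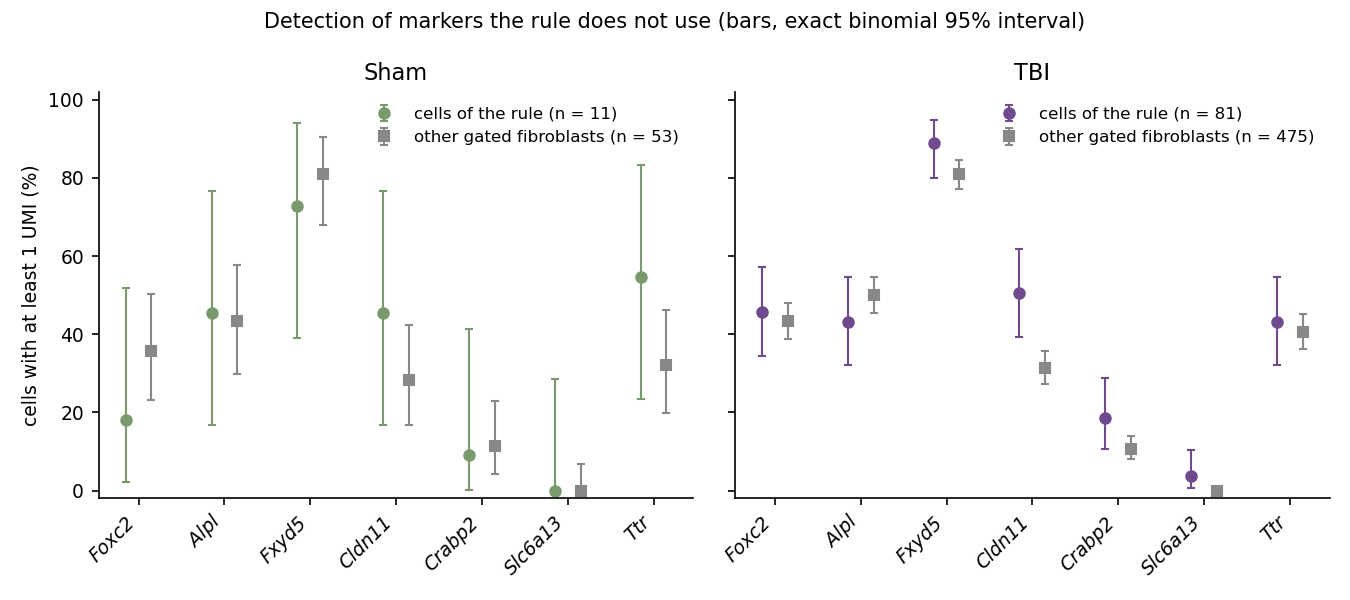
Share of cells with at least 1 UMI (percent, unthinned) of 7 markers that the rule does not use, in the fibroblasts found by the rule and in the other gated fibroblasts of the same library, with exact binomial 95% intervals. In TBI, Cldn11 has an interval above that of the other fibroblasts, while the Foxc2, Alpl and Fxyd5 intervals overlap in both libraries.

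The organic cation transporter Slc47a1, an arachnoid barrier and dural border transcript that the gate itself uses, was detected in 6 of 11 Sham cells (33 UMIs) and 53 of 81 TBI cells (294 UMIs). Of the TBI cells, 41 had both Slc47a1 and Foxc2 or Alpl, 12 had Slc47a1 only, 12 had Foxc2 or Alpl only and 16 had neither, while 242, 76, 76 and 81 of the 475 other gated TBI fibroblasts fell into these classes. In Sham, the counts were 3, 3, 2 and 3 of 11 cells and 21, 10, 10 and 12 of 53 others. The bicarbonate transporter Slc4a10 was detected in 9 Sham cells (59 UMIs) and 58 TBI cells (256 UMIs).

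At least 2 UMIs of the markers of other lineages, summed, were present in 5 of 11 Sham (45.5%) and 40 of 81 TBI cells (49.4%), and most of these UMIs were Ttr in few cells. Ttr, the transthyretin transcript of choroid plexus epithelium, was detected in 6 of 11 Sham and 35 of 81 TBI cells, but 1 Sham cell held 1376 of 1385 UMIs (99.4%) and 3 TBI cells held 571, 1429 and 1837, or 98.7% of 3887. The Sham cell had 9022 UMIs, the most of any Sham cell in the set, with 1 UMI of Col1a1, 1 of Mgp and 3 of Ptgds, and it met the rule through those 3. The 6 choroid plexus markers summed to 28151 CPM in Sham and 12905 CPM in TBI, against 222 and 366 CPM in gated fibroblasts with neither an inner-layer nor a dural marker, and Ttr supplied the most UMIs. Ttr was also found in 14.6% of Sham and 39.7% of TBI B cells.

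UMIs of the 6 Schwann cell markers lay almost wholly in TBI cells, and in few of them. They summed to 2 UMIs (40.1 CPM) in Sham and 113 UMIs (369 CPM) in TBI, and 103 of the 113 lay in 4 TBI cells with 7 to 41 UMIs each. One of these 4 cells was also Ttr-rich, so that 1 Sham cell and 6 TBI cells had at least 50 Ttr UMIs or at least 5 Schwann marker UMIs.

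Further lineages were counted as well, and the rule itself fixes Ptprc, Cdh5 and Rgs5 at 0. Endothelial markers summed to 3 UMIs in Sham and 22 in TBI, mural cell markers to 0 and 19, osteoblast markers to 5 and 17, macrophage markers to 1 and 20 with Csf1r at 0, and B cell markers to 0 and 6. Pinealocyte, T cell, and neuron and astrocyte markers each had 0 UMIs in Sham and at most 2 in TBI. Hemoglobin transcripts, which the filter on cells limits, had 34 UMIs in Sham and 107 in TBI, and all 5 cell cycle markers were at 0 in both. No barcode was shared by the 2 libraries among these cells, although 20 were shared among all 7048 barcodes.

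The number of cells found differed between the libraries. The cells made up 0.538% (0.269 to 0.961) of 2043 filtered Sham cells and 2.15% (1.71 to 2.66) of 3773 filtered TBI cells, a difference of 1.61 percentage points (1.01 to 2.17). All gated fibroblasts differed in the same direction, at 3.13% (2.42 to 3.98) of filtered cells in Sham and 14.7% (13.6 to 15.9) in TBI. As a share of the gate, the cells made up 17.2% (8.90 to 28.7) of 64 in Sham and 14.6% (11.7 to 17.8) of 556 in TBI, a difference of -2.62 points (-13.97 to 5.35). The higher number in TBI therefore went with a larger fibroblast gate as a whole, and no difference within the gate was detectable at this depth. Whether more fibroblasts were present or more were recovered from the tissue cannot be told apart.

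Because the rule asks for detected UMIs, it favours deep cells. With all cells thinned to 1000 UMIs, 6 of 1655 Sham cells (0.363%) and 33 of 3234 TBI cells (1.02%) met the rule, a difference of 0.658 points (0.141 to 1.11). Within the gate the thinned shares were 9.23% (3.46 to 19.02) in Sham and 6.02% (4.18 to 8.35) in TBI. Only 5 of the 11 Sham cells and 26 of the 77 TBI cells deep enough to be thinned were found again, so membership depends strongly on depth. In B cells, the share with a UMI was 0.225% in Sham and 0.236% in TBI for Aldh1a2, 0.225% and 0.473% for Col18a1, and 0.676% and 2.60% for Ptgds, with median depths of 3193 and 2729 UMIs.

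The rule also left out many cells that expressed these genes. Aldh1a2 was detected in 30 Sham and 90 TBI filtered cells, of which 4 and 31 passed the fibroblast gate, and Col18a1 in 39 and 120, of which 3 and 40 passed. Of these, 13 of the 39 and 42 of the 120 Col18a1-positive cells had Pecam1 or Cdh5, both endothelial genes. Of 62 Sham and 177 TBI cells with at least 3 Ptgds UMIs, 40 and 96 had at least 50 Ttr UMIs, and 4 and 21 passed the gate. At the Ptgds threshold the set was thin: in the gate and without the other 2 genes, 1 Sham and 3 TBI cells had exactly 3 UMIs, 0 and 7 had 2, and 1 and 26 had 1. A further 6 Sham and 19 TBI cells with an inner-layer marker had only 2 of the 6 gate genes, and 7 and 44 were excluded by Ptprc, Cdh5 or Rgs5 alone.

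Cells with very high Ptgds fell mostly outside the rule. At least 100 Ptgds UMIs were counted in 4 Sham cells, with a range of 138 to 372, and in 16 TBI cells, with a range of 116 to 3349. The rule took none of the 4 and 4 of the 16, at 3349, 364, 344 and 164 UMIs. Those 4 cells held 93.7% of the Ptgds UMIs of the TBI set and had 0 Slc47a1 UMIs, and 2 of them had Foxc2 or Alpl. Of the 12 TBI cells left out, 9 had fewer than 3 gate genes, 6 had Aldh1a2 (7 UMIs) and 9 had Cldn11 (88 UMIs). Only 1 of the 20 cells, from Sham, also had at least 50 Ttr UMIs, so the high-Ptgds cells as a group were not Ttr-rich.

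**Figure D3:**
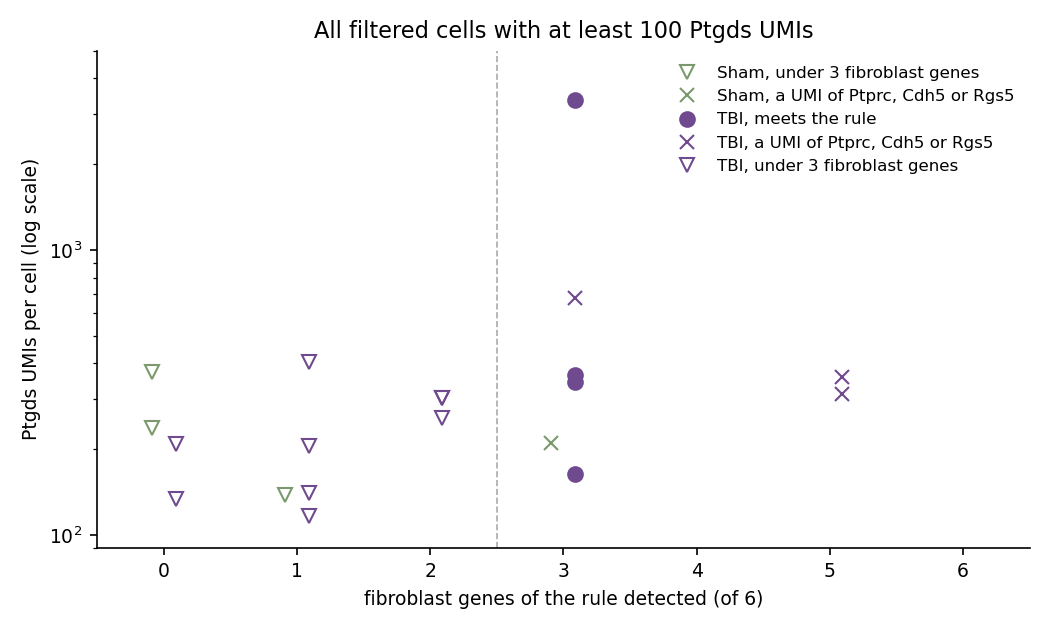
Ptgds UMIs per cell (log scale) against the number of the 6 gate genes detected, for all 20 filtered cells with at least 100 Ptgds UMIs, with filled circles for those that meet the rule, triangles for those with fewer than 3 gate genes and crosses for those with 3 or more that were excluded by Ptprc, Cdh5 or Rgs5. Most points lie left of the dashed line at 3 gate genes, and the 4 cells taken by the rule all have exactly 3.

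For the comparison of conditions, UMIs were summed over the 11 Sham cells (49910 UMIs) and the 81 TBI cells (306091 UMIs), expressed as CPM, and compared as a log2 ratio of TBI over Sham with 0.5 UMI added to each sum. A count of 3 UMIs corresponds to 60.1 CPM in Sham and 9.80 CPM in TBI, so low Sham values are imprecise. Of 1150 genes with at least 50 UMIs over both libraries, 72 (6.26%) were at least 2-fold higher in TBI and 51 (4.43%) at least 2-fold lower, with a median log2 ratio of -0.02. Single cells weighed on these counts: 25 of the 51 lower genes had at least 50% of their Sham UMIs in 1 cell, as did 6 of the 72 higher genes in TBI.

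Fibrillar collagens did not move as a block. Among 44 collagen genes, 14 reached 50 UMIs, of which 2 were at least 2-fold higher and 0 lower in TBI, with a median log2 ratio of -0.18. Col1a1 had 1863 CPM in Sham and 3914 in TBI, a log2 ratio of 1.06 (0.77 to 1.39), and Col8a2, a network-forming collagen, 40.1 and 225 CPM, or 2.18 (0.58 to 5.57). For Col1a1, 1 TBI cell held 26.5% of its TBI UMIs. Col1a2 had 2845 and 3930 CPM (0.46, 0.21 to 0.73), whereas Col3a1, the type III chain, was lower in TBI at 2264 and 1284 CPM (-0.82, -1.12 to -0.50), as was Col14a1 at 801 and 487 CPM (-0.73, -1.23 to -0.18). Both type I chains are gate genes and the sums leaned on single cells, with 24.4% of the TBI UMIs of Col1a2 and 46.0% of the Sham UMIs of Col3a1 in 1 cell. The median cell had 22.8 Col1a1 UMIs per 10000 in Sham and 18.8 in TBI, the opposite order to the sums.

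Over all cells of the rule, the small leucine-rich proteoglycans, which bind collagen fibrils, had the lowest median of the lists (-0.82 over 6 genes, 1 higher and 2 lower at 2-fold). Without the Foxc2 or Alpl cells their median was -0.99, above that of oxidative phosphorylation (-1.35). Without cells carrying other lineages' markers it was -1.10, above the 1 interferon-induced gene tested (-1.22). Dcn had 10619 CPM against 4290 (Sham, then TBI) (-1.31, -1.45 to -1.16), and lumican (Lum) 2745 and 774 CPM (-1.83, -2.14 to -1.51). Osteoglycin (Ogn) had 1703 and 866 CPM (-0.98, -1.33 to -0.61), with 49.4% of its Sham UMIs in 1 cell. Fibromodulin (Fmod) went the other way, at 160 CPM (8 UMIs) and 497 CPM (1.55, 0.62 to 2.87), and biglycan (Bgn) had 942 and 1196 CPM with an interval that included 0. Lum was detected in 6 of 11 Sham cells and Dcn in 9, but unevenly, since 1 Sham cell held 38.7% of the Lum UMIs and 1 held 34.7% of the Dcn UMIs. Dcn is a gate gene, and 3 Sham cells with 184, 164 and 111 UMIs held most of its 530. The median cell had 19.1 Dcn UMIs per 10000 in Sham and 19.2 in TBI.

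Basement membrane genes lay close to the background, with 8 of 16 tested, 0 past 2-fold in either direction and a median of -0.08. They included Lamb2, a laminin chain, with 260 CPM in Sham and 376 in TBI (0.48, -0.30 to 1.48), nidogen-1 (Nid1) with 441 and 457 CPM (0.03, -0.60 to 0.77), and perlecan (Hspg2) with 260 and 160 CPM (-0.74, -1.61 to 0.30). Sparc, a collagen-binding matricellular protein, had 2845 and 5087 CPM (0.83, 0.59 to 1.10), of which 29.8% in TBI came from 1 cell. The elastic fibre and matricellular list had 15 genes tested, 1 higher and 0 lower, with a median of 0.13 (the higher gene was Mfap2, a microfibril component, at 1.06), and the matrix processing list 12 genes, 0 in either direction and 0.02.

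The retinoic acid pathway could be assessed for few genes. Of 17 fixed genes, 15 were detected and 2 reached 50 UMIs. Of these 2, 0 passed 2-fold in either direction and 1 had a ratio above 0 (median -0.40). Aldh1a2, on which the rule rests, had 16 UMIs (321 CPM) in Sham and 54 UMIs (176 CPM) in TBI. Below the threshold, Dhrs3, a retinaldehyde reductase, had 7 and 38 UMIs (140 and 124 CPM). Rbp4, the secreted retinol carrier, had 0 UMIs in Sham and 43 in TBI, which is at least 2.34-fold higher in CPM, with 53.5% of them in 1 cell.

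In the prostaglandin pathway, 5 of 20 genes were tested, 2 were at least 2-fold higher, 0 lower, and the median was 0.19. Ptgds, a rule gene, had 421 CPM in Sham and 14721 in TBI, a log2 ratio of 5.10 (4.51 to 5.82) that came to 1.19 without the 4 TBI cells with at least 100 UMIs. Prostacyclin synthase (Ptgis) had 5 and 70 UMIs, or 100 and 229 CPM (1.06, -0.10 to 2.86). The phospholipase Pla2g4a, which releases arachidonic acid, had 200 and 140 CPM (-0.57, -1.53 to 0.65), and the prostaglandin D receptor Ptgdr 140 and 170 CPM (0.19, -0.87 to 1.66). Apart from Ptgds, no interval in the pathway's tested genes left out 0.

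Transporters and junction genes, which give the arachnoid barrier its function, also lay near the background. Of 26 transporter genes, 9 were tested, with 0 higher, 1 lower and a median of 0.10. The lower gene was the chloride cotransporter Slc12a2, with 381 CPM in Sham and 183 in TBI (-1.08, -1.83 to -0.22). With Aldh1a2 or Col18a1 as the only criteria its ratio was 0.37, from 3 and 42 UMIs. Slc47a1 had 661 and 961 CPM (0.52, 0.02 to 1.10), Slc4a10 had 1182 and 836 (-0.51, -0.91 to -0.07), and the amino acid transporter Slc38a2 had 3486 and 3943 (0.17, -0.05 to 0.42). Of 25 junction and keratin genes, 7 were tested and 0 passed 2-fold in either direction (median 0.16). They included Cldn11 with 581 and 666 CPM (0.18, -0.37 to 0.81) and the gap junction gene Gja1 with 421 and 278 (-0.62, -1.30 to 0.16).

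Signalling lists showed scattered genes and small medians. In the TGF-beta and BMP list 10 genes were tested, 1 was higher and 0 lower (median 0.17), the higher gene being Pmepa1, a TGF-beta-induced feedback regulator, with 3 and 84 UMIs (60.1 and 274 CPM, 1.98, 0.59 to 4.50). In the insulin-like growth factor list 7 genes were tested and 0 passed 2-fold (median 0.16). The binding protein Igfbp5 was lower in TBI, with 6151 and 4270 CPM (-0.53, -0.71 to -0.34). The Wnt list had 4 tested genes, 0 past 2-fold and a median of -0.06, and the growth factor and receptor list 5, 0 and 0.41. The fibroblast transcription factor list had 12 tested genes, 1 higher and 1 lower (median -0.03), and Foxc2 was the higher one, with 4 and 72 UMIs (80.1 and 235 CPM, 1.39, 0.13 to 3.47). The lower one was the homeobox gene Msx1, with 441 and 203 CPM (-1.14, -1.84 to -0.35) and 63.6% of its Sham UMIs in 1 cell. Its ratio was 0.50 with Aldh1a2 or Col18a1 as the only criteria, from 3 and 46 UMIs.

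Immune-related lists were thinly covered. Of the complement list 4 genes were tested, 1 of them higher and 0 lower (median -0.06). In the MHC class I list 9 genes were tested, with 1 higher and 0 lower (median -0.02), and the higher gene was H2-K1, with 220 and 480 CPM (1.06, 0.24 to 2.16). B2m, the light chain of class I molecules, had 601 and 611 CPM (0.00, -0.54 to 0.63). The only chemokine or cytokine tested was Cxcl12, with 1022 and 738 CPM (-0.48, -0.91 to -0.00), and the 2 tested interferon-induced genes had a median of -0.31 with neither past 2-fold.

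The nuclear oxidative phosphorylation and glycolysis lists depended on which cells were summed. The former had 61 tested genes, 0 higher and 13 lower (median -0.63), but with the Ttr-rich and Schwann marker cells left out 50 were tested, 1 was higher and 0 lower, and the median was -0.07. Without all cells carrying other lineages' markers, which leaves those cells out too, 16 oxidative phosphorylation genes were tested, 0 were higher and 5 lower, and the median was -0.68. Without the Foxc2 or Alpl cells it was -1.35 (18 tested, 0 higher, 12 lower), and with Aldh1a2 or Col18a1 as the only criteria 0.18 over 42 genes. Glycolysis genes had a median of -0.56 (10 tested, 0 higher, 1 lower), and of 0.04 over 6 genes without the Ttr-rich and Schwann marker cells. The 76 ribosomal protein genes had a median of 0.15 (2 higher, 0 lower), but 0.65 (24 higher, 0 lower of 75) with Aldh1a2 or Col18a1 only and -0.30 (0 higher, 3 lower of 62) without other lineages' markers, so that they had no steady direction. Over all genes tested, 14.2% were higher and 6.53% lower with Aldh1a2 or Col18a1 only, and 6.36% and 7.09% without other lineages' markers. These shares were 10.4% and 10.8% without the Foxc2 or Alpl cells, and 6.02% and 3.92% without the Ttr-rich and Schwann marker cells. There were 12 mitochondrially encoded genes, with a median of 0.49 (1 higher, 0 lower). The metallothionein and antioxidant list had 17 tested genes with 2 higher and 2 lower (median -0.24), the lipid carrier list 8 with 1 and 0 (0.10), the early response list 6 with 1 and 0 (-0.24), and the contractile and activated fibroblast list 3 with 1 and 0 (0.40). Of 10 fibroblast genes that the study names for this injury, 3 were higher (Nisch, Pmepa1 and Foxc2) and 0 lower, with a median of 0.22. Those 10 genes had been picked on these same libraries and are not independent evidence.

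**Figure D4:**
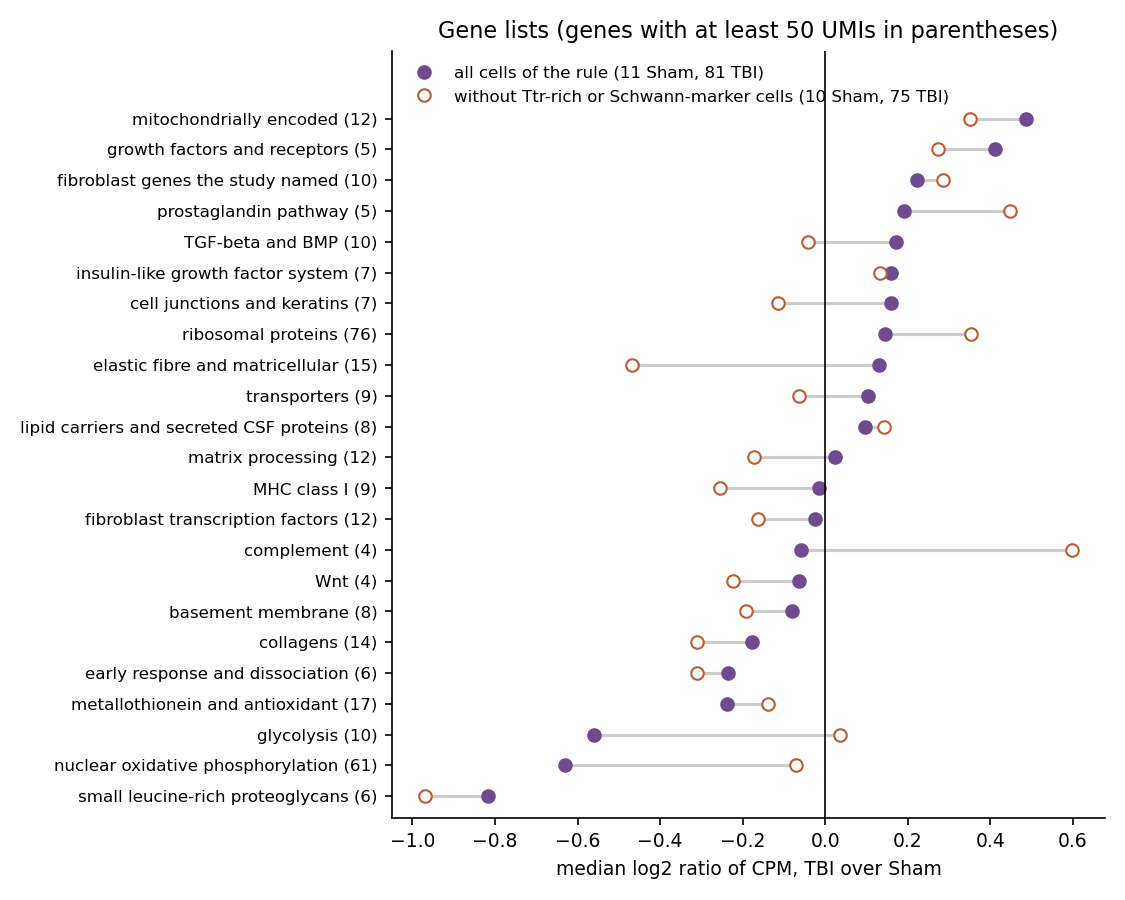
Median log2 ratio of CPM, TBI over Sham, of gene lists (number of genes with at least 50 UMIs in parentheses), for all cells of the rule (filled) and without the Ttr-rich and Schwann marker cells (open). The retinoic acid, chemokine and cytokine, interferon-induced, and contractile and activated fibroblast lists had the fewest tested genes and are not drawn. Most medians lie within 0.5 of 0 for both, the small leucine-rich proteoglycans are lowest at -0.82, and oxidative phosphorylation moves from -0.63 to -0.07.

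Among the 10 genes with the highest ratio, 9 are described here: Ptgds, Nnat, Matn4, Kcna1, Comp, H2-Aa, Meg3, Arhgef25 and H2-Eb1. Nnat, Matn4, Kcna1 and Comp had 0 UMIs in Sham, so their values are lower bounds. Nnat, a neuronal proteolipid, reached 330 CPM in TBI (at least 5.49-fold higher) through 3 cells, with 81.2% of the UMIs in 1 of them, and all 3 were among the 4 high-Ptgds cells. Matn4, a matrix adaptor protein, reached 327 CPM in 11 cells (at least 5.44-fold), and Comp, the cartilage oligomeric matrix protein, 186 CPM in 9 cells (at least 3.1-fold). Kcna1, a potassium channel subunit of nerve fibres, reached 206 CPM in 4 cells (at least 3.42-fold), the same 4 cells that had at least 5 Schwann marker UMIs.

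The other high ratios differed in how many cells carried them. Meg3, an imprinted noncoding RNA, had 40.1 CPM (2 UMIs) in Sham and 323 in TBI (2.70, 1.12 to 6.08) and was found in 27 TBI cells. Arhgef25, a guanine nucleotide exchange factor, had 20.0 CPM (1 UMI) and 160 (2.43, 0.45 to 8.33), in 33 TBI cells. The MHC class II genes H2-Aa and H2-Eb1 each had 40.1 CPM in Sham and 438 and 252 in TBI, with 63.4% and 72.7% of the TBI UMIs in 1 cell, and their ratios were -0.83 (2 and 7 UMIs) and -0.30 (1 and 6) without cells carrying other lineages' markers. Meg3 and Arhgef25 were thus the genes among the 9 whose TBI UMIs were spread over the most cells besides Ptgds.

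The 10 genes with the lowest ratio were Mt3, Penk, Ddit4, Lum, Gsn, Ankrd12, Cox7a2, Ndufb7, Chchd10 and Uqcrb. Gelsolin (Gsn), an actin-severing protein abundant in fibroblasts, had 4909 CPM in Sham and 1477 in TBI (-1.73, -1.96 to -1.50). It was detected in 9 of 11 and 61 of 81 cells, but 1 Sham cell held 49.4% of the Sham UMIs. Its ratio was -2.0 without the Ttr-rich and Schwann marker cells. Lum was at -1.94 there. The opioid precursor Penk had 1423 and 317 CPM (-2.17, -2.62 to -1.70) but came from 3 Sham cells, 1 of which held 63.4%, and its ratio was 1.09 with the Foxc2 or Alpl cells left out, from 1 and 9 UMIs. Ddit4, a stress-induced mTOR inhibitor, had 441 and 124 CPM (-1.84, -2.62 to -1.0) over 7 and 20 cells, and Ankrd12, an ankyrin repeat cofactor, 341 and 108 CPM (-1.68, -2.55 to -0.72) over 7 and 26.

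The metallothionein Mt3 had 61 Sham UMIs, all in the Ttr-rich cell, and 1222 and 203 CPM (-2.59), and no direction can be read without the Ttr-rich and Schwann marker cells, which leaves 0 and 5 UMIs. Chchd10, a mitochondrial intermembrane protein, had 92.6% of its Sham UMIs in 1 cell and went from -1.53 to 0.32, the latter from 2 Sham and 20 TBI UMIs. For the respiratory chain genes Uqcrb (-1.45), Cox7a2 (-1.56) and Ndufb7 (-1.56), the values without those cells were -0.05, -0.71 and -0.99. For each of these 5 genes a single cell held between 55.0% and 100% of the Sham UMIs.

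**Figure D5:**
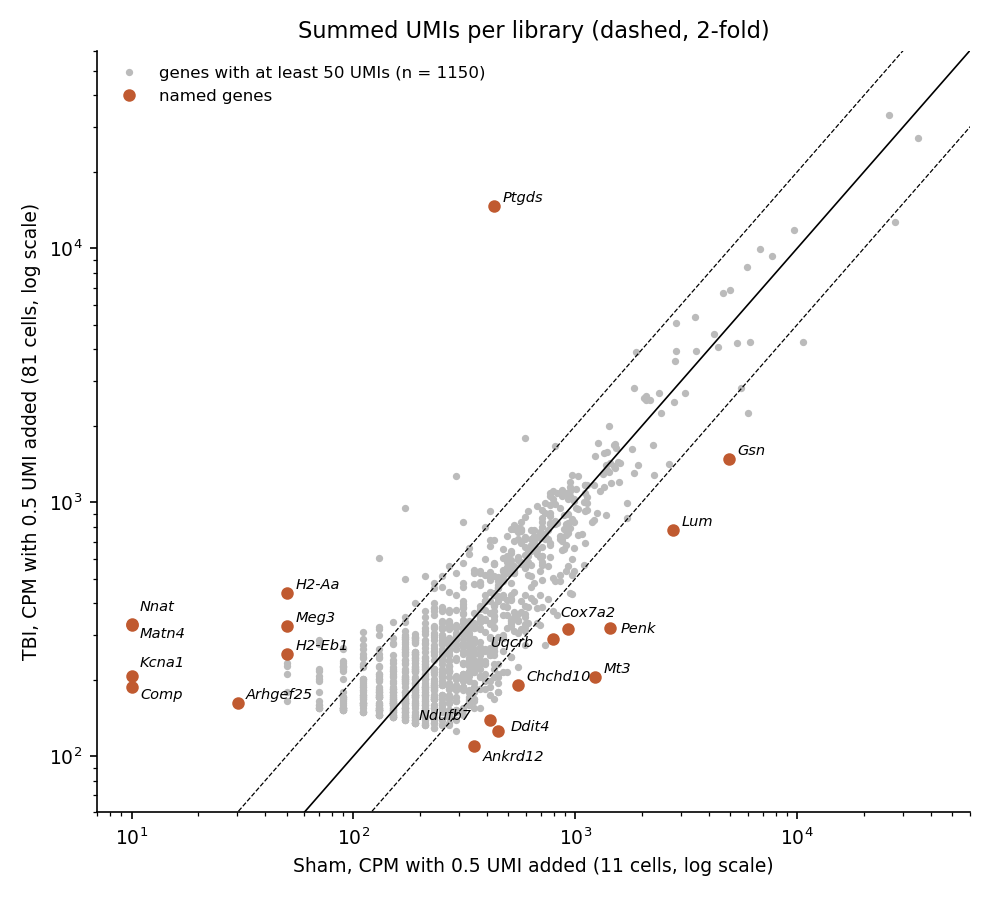
Summed expression (CPM with 0.5 UMI added, log scales) of the 1150 genes with at least 50 UMIs in the 81 TBI cells against the 11 Sham cells, with dashed lines at 2-fold and 9 of the 10 highest and the 10 lowest ratios named (Nnat and Matn4 lie on the same point). Ptgds, which the rule itself uses, lies at 421 and 14721 CPM, with 93.7% of its TBI UMIs in 4 cells. Without those 4 cells its log2 ratio was 1.19. Gsn and Lum are the named lower genes with the most UMIs.

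A few further genes differed between the summed cells of the libraries. Gpx3, a secreted glutathione peroxidase, had 581 CPM in Sham and 1784 in TBI (1.59, 1.08 to 2.21), in 4 of 11 and 27 of 81 cells, but -0.57 without the cells that had at least 2 UMIs of another lineage's markers. The imprinted noncoding RNA H19 had 120 (6 UMIs) and 601 CPM (2.21, 1.17 to 3.79), in 3 and 37 cells. Podoplanin (Pdpn), a surface glycoprotein of leptomeningeal and lymphatic cells, had 2 and 54 UMIs, or 40.1 and 176 CPM (1.83, 0.22 to 5.22). The apolipoproteins went in opposite directions: Apod had 5590 and 2823 CPM (-0.99, -1.18 to -0.79), with 54.8% of the Sham UMIs in 1 cell, and Apoe had 1823 and 2813 (0.62, 0.31 to 0.95).

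The cells were next compared with the 179 gated fibroblasts (22 Sham, 157 TBI) that had neither an inner-layer marker nor Foxc2 or Alpl. Of 162 genes with enough UMIs, 5 (3.09%) were at least 2-fold higher in both libraries and 1 (0.617%) at least 2-fold lower, while the median log2 ratio was 0.83 in Sham and 0.11 in TBI. The unmarked cells were shallower, with medians of 1553.5 and 1463 UMIs, and the part of depth in these values was not tested beyond the thinned alternative. They also held other lineages' markers. In TBI, macrophage markers summed to 2772 CPM in unmarked cells against 65.3 in cells of the rule, and Schwann markers to 2180 against 369. In Sham the sums were 0 against 20.0 and 27.7 against 40.1. Their part in the ratios was not tested beyond the alternatives that left such cells out. The higher genes were Ttr, Mt3, Enpp2, Atp5g3 and Cxcl12. Enpp2, which encodes autotaxin, had 2645 against 83.2 CPM in Sham and 1411 against 35.9 in TBI, with 96.2% of the Sham UMIs in the Ttr-rich cell.

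Cxcl12, the chemokine that guides and retains CXCR4-bearing cells, had 1022 CPM in the cells of the rule against 222 in unmarked fibroblasts in Sham, a log2 ratio of 2.13 (1.12 to 3.49), and 738 against 334 in TBI, 1.14 (0.79 to 1.51). With the mean over cells its TBI ratio was 0.87, under 2-fold. Without the Ttr-rich and Schwann marker cells it was past 2-fold in both libraries, and the other 4 genes had too few UMIs to be tested. It had too few itself after thinning, with Aldh1a2 or Col18a1 as the only criteria, and without cells carrying other lineages' markers. The lipid phosphatase gene Plpp3 passed 2-fold in both libraries without the Ttr-rich and Schwann marker cells, and its ratios over all cells were 0.75 (0.31 to 1.22) and 1.16 (1.00 to 1.32). The noncoding transcripts Malat1 and Kcnq1ot1 were lower than in unmarked fibroblasts in both libraries, with log2 ratios of -1.95 and -2.23 in Sham and -0.67 and -0.94 in TBI. The gene past 2-fold was Gm26917, a predicted noncoding gene named here only after its values were seen, at -2.94 and -1.28.

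Finally, the cells without Foxc2 or Alpl (6 Sham, 28 TBI) were compared with the 349 dural-marked fibroblasts outside the rule (31 Sham, 318 TBI). Of 350 genes tested, 10 (2.86%) were at least 2-fold higher in both libraries and 23 (6.57%) at least 2-fold lower. The comparison removed every Foxc2 or Alpl cell from one side only, so genes that go with those markers differ in part by construction. The cells without Foxc2 or Alpl also included the Ttr-rich Sham cell, with 9022 of their 26700 Sham UMIs. In TBI they included the 4 Schwann marker cells, with 17850 of 79593 UMIs, and a further Ttr-rich cell with 4469. The part of these cells in the ratios, higher or lower, was not tested. Among the higher genes, Apod had 8390 against 525 CPM in Sham and 3907 against 568 in TBI (3.99, 3.57 to 4.44, and 2.78, 2.58 to 2.99). In Sham, 1 cell held 153 of the 224 Apod UMIs, so that value leaned on it. Vitronectin (Vtn), an adhesive plasma and matrix protein, had 1648 against 55.3 and 1395 against 42.9 (4.80 and 5.01). On the log2 scale Apoe was higher by 1.31 (0.80 to 1.79) and 1.51 (1.33 to 1.69). Ttr (8.70 and 5.85) and Enpp2 (7.27 and 5.58) came from few cells.

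The lower genes included matrix and growth-control genes of the dural-marked cells. Igfbp5 had 1423 against 10568 CPM in Sham and 3631 against 9004 in TBI (-2.87, -3.40 to -2.43, and -1.31, -1.48 to -1.14). The log2 ratios were -2.50 and -1.87 for Fmod, -2.22 and -2.28 for H19, and -3.13 and -2.36 for Penk, with 1 to 4 Sham UMIs in each. Clec11a, a secreted osteogenic factor, and Id1, a BMP target, had 0 UMIs in the 6 Sham cells against 1032 and 562 CPM in dural-marked Sham cells, and in TBI had 176 against 1057 and 126 against 532 CPM. Comp likewise had 0 UMIs against 479 CPM in Sham and 113 against 719 in TBI.

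Among the TBI cells that met a single criterion, the genes named here were picked for their ratio between these groups, so the values are a description. The 23 Aldh1a2-only cells had 5110 CPM of Gpx3 against 807 in the other 2 single-criterion groups, 1886 against 334 of Lum, 1152 against 210 of Vtn and 4419 against 1226 of Apod. These UMIs came from 9 cells for Gpx3, 17 for Lum, 11 for Vtn and 15 for Apod. For each gene 1 cell weighed heavily, with 32.4% of the Gpx3, 38.2% of the Lum, 31.25% of the Vtn and 44.0% of the Apod UMIs. The 33 Col18a1-only cells had 455 CPM of Kcna1 (3 cells) against 0, 579 against 37.2 of the class II gene H2-Ab1 with 90% in 1 cell, and 637 against 66.9 of myocilin (Myoc) with 98.7% in 1 cell. Matn2, a matrilin, was spread more widely, with 438 against 96.7 CPM in 14 cells. The 15 Ptgds-only cells had 784 against 94.6 CPM of the sulfate transporter Slc26a2 in 10 cells, 708 against 142 of the malate dehydrogenase Mdh1 in 9, and 30854 against 205 of Ttr, with 71.2% in 1 cell.

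Dural markers were found in each of these TBI groups. Foxc2 or Alpl was present in 14 of 23 Aldh1a2-only, 23 of 33 Col18a1-only and 10 of 15 Ptgds-only TBI cells, and in 0 of 4, 2 of 3 and 3 of 4 such Sham cells. In TBI, no criterion alone thus picked out only cells free of dural markers.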

How the data were processed

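The deposited matrices hold the UMI counts that the authors obtained with Cell Ranger on mm10. The matrix headers name version 3.1.0 and the submitters' processing notes version 2.1.1. They hold barcodes called as cells, and the counts are not normalized. Cells were kept with 150 to 5000 genes, at most 20% mitochondrial and at most 5% hemoglobin UMIs. Doublets were not called. The members and gene lists were chosen with earlier results of these data known.

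UMIs were summed over cells per library and scaled to CPM. Log2 ratios had 0.5 added to each sum and an exact conditional binomial interval (numpy 2.4.6, scipy 1.17.1). Shares have exact (Clopper-Pearson) 95% binomial intervals and their differences Newcombe intervals from Wilson limits. For shares of detection, cells were thinned to 1000 UMIs with seed 1. No test between conditions was made, since each is 1 library, grouped by its label. Alternatives are in the closing section. A fold against 0 UMIs was taken against 3 counts. Named genes were the rule genes and markers, genes of 27 lists past 2-fold or among their most counted, the 10 largest and 10 smallest ratios, and genes past 2-fold against the other fibroblasts. Some were left out for brevity, and a few are not reported here. Ratio steps were tested on simulated counts.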

Additional observations from a re-analysis of the deposited data

How the results depend on the processing

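Each condition is 1 library, 11 Sham cells carry the comparison, and 3 UMIs there are 60.1 CPM, so ratios of single genes are held loosely. No paired analysis was possible because the groups share only 1 replicate number. The difference in the share of filtered cells (1.61 points) stayed positive under all alternatives, at 2.43 with Ptgds at 1 UMI or more, 0.793 without cells with 2 or more UMIs of other lineages' markers and 0.448 without cells with Foxc2 or Alpl. The thinned difference was 1.39 at 2000 UMIs. The difference within the gate ranged from -6.29 to 1.75 points and always lay within the interval of the value reported.

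The counts of genes past 2-fold moved more. Those higher in TBI (72) numbered 26 without cells with other lineages' markers, 26 without Foxc2 or Alpl cells, 115 with Aldh1a2 or Col18a1 as the only criteria, 395 at 20 UMIs or more and 1650 at 1 UMI or more. Those lower (51) numbered 29, 27, 53, 284 and 4232. The genes tested numbered 409, 249, 812, 3439 and 13342, against 1150. As shares of these, the higher genes were 6.36%, 10.4%, 14.2%, 11.5% and 12.4%, against 6.26%. The lower genes were 7.09%, 10.8%, 6.53%, 8.26% and 31.7%, against 4.43%. Many fell under 50 UMIs with fewer cells: 11 of the 72 and 7 of the 51 were kept without other lineages' markers, 10 and 10 without Foxc2 or Alpl cells, and 37 and 14 with Aldh1a2 or Col18a1 only. Signs turned, genes under 50 UMIs included, for 10, 3 and 0 of the higher and 4, 2 and 15 of the lower genes. List medians also turned sign under at least 1 of these 3 settings, among them those of collagens (0.16 without other lineages' markers), oxidative phosphorylation, glycolysis and ribosomal proteins. In 2 alternatives chosen after seeing the data, 44 of 72 higher and 19 of 51 lower genes were kept without Ttr-rich and Schwann marker cells, with 11 of the lower genes turned in sign, and 63 and 45 without cells with at least 100 Ptgds UMIs. Genes higher than in unmarked fibroblasts in both libraries (5 of 162) numbered 1 of 25 after thinning and 1 of 104 with Aldh1a2 or Col18a1 only. They numbered 0 of 84 without other lineages' markers and 2 of 135 without the Ttr-rich and Schwann marker cells. Of the 5 genes, 1, 3, 0 and 1 had enough UMIs to be tested under these settings. Genes lower than in unmarked fibroblasts (1) numbered 0, 2 and 0 under the first 3 of these. The counts against dural-marked fibroblasts had no alternative.

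For the genes named in the text, signs turned as follows on the log2 scale, and the cause was not tested where no cells are named. With Aldh1a2 or Col18a1 only, which takes the Ttr-rich Sham cell out of the set, TBI over Sham was 0.80 for Chchd10, 0.50 for Msx1, 0.47 for Mt3, 2.22 for Penk, 0.37 for Slc12a2 and 4.74 for Ttr, and, since cells without Foxc2 or Alpl that met the rule through Ptgds, that cell among them, then count as unmarked, the Sham ratio over unmarked fibroblasts was -1.82 for Atp5g3, -3.76 for Enpp2, -6.13 for Mt3 and -6.72 for Ttr, with -2.30 for Mt3 in TBI. Without other lineages' markers, TBI over Sham was -0.57 for Gpx3, -0.83 for H2-Aa, -1.57 for H2-Ab1, -0.30 for H2-Eb1 and 0.30 for Uqcrb, and Ttr over unmarked fibroblasts was -0.60 in Sham and -1.12 in TBI. Without the Ttr-rich and Schwann marker cells it was -0.020 and -0.97, and Chchd10 and Mt3 stood at 0.32 and 0.74. Penk was 1.09 without Foxc2 or Alpl cells. Sham had 0 UMIs of Mt3 in both its values of TBI over Sham, which the added 0.5 sets, and 1 to 4 UMIs of the other genes whose sign turned in TBI over Sham except Gpx3 (27) and Ttr (7), so these signs rest on few counts. Of 677 values of TBI over Sham for genes named, 560 stayed within their counting interval.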
